A study of Mus musculus with 24 samples.

Results

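The fibrillar collagen chains described here are *Col1a1*, *Col1a2*, *Col3a1*, *Col5a1*, *Col5a2*, *Col5a3*, *Col11a1*, *Col24a1* and *Col27a1*. They were taken by gene symbol alone, each symbol matched 1 entry, and the 9 genes stand among 55335 genes counted in every library. The other 2 fibrillar chain genes of the mouse, *Col2a1* and *Col11a2*, are given beside them for comparison only. The counts come from polyadenylated RNA of cultured primary osteoblasts (OBs), sequenced in bulk. The study compared wild type (WT) cultures with cultures heterozygous for a mutation in *Col1a2* (Het G610C) on days 8, 14 and 21 of culture. There were 4 libraries per genotype and day, 24 in all, numbered as replicates 1 to 4.

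Both genotypes were on the C57BL/6J background, and the cells were extracted from parietal bones of pups 4 to 5 days old. All cultures, WT included, received the same medium with serum and ascorbic acid 2-phosphate, and the labels give osteogenic differentiation as the treatment of every sample. The mutation is carried by the germ line and therefore by every cell type of a Het culture, not by OBs alone. Pups of the same genotype were pooled to seed the wells, so wells of a preparation share animals, and the p-values below measure the spread between these libraries, not between mice. According to the methods there was a pair of experiments on different litters, which differed in plating density and in oxygen during expansion. The methods describe 1 well per genotype and day in one experiment and 2 in the other, fewer than the 4 libraries labelled. The labels give replicate numbers only, so which experiment a library belongs to, and which libraries are separate wells, is not known.

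Fibrillar collagen chains share a long stretch in which glycine returns in each Gly-X-Y triplet. Glycine is the only residue small enough to fit the inside of the triple helix. α1(I) chains and an α2(I) chain, the products of *Col1a1* and *Col1a2*, form the collagen I of bone matrix. Collagen III is a homotrimer of loose and healing tissue. Collagen V sits within collagen I fibrils and limits their diameter, and collagen XI does the same in cartilage fibrils made of collagen II. Collagens XXIV and XXVII are later described fibrillar chains whose Gly-X-Y stretch is interrupted.

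The codon that the allele name refers to is given here in the reference sequence of *Col1a2*. For comparison, the codon of the same number in the longest run of 5 further chains is given. Each line gives 15 codons, 603 to 617 of the longest uninterrupted Gly-X-Y run of the longest coding transcript (GENCODE release M21, GRCm38), read 5′ to 3′ on the coding strand. The capitals mark codon 610 of that run, which is a glycine codon in all 6 chains. The chains were not aligned, so codon 610 of another chain need not be the residue that corresponds to that of *Col1a2*. The mutated allele itself is not shown.
Col1a2: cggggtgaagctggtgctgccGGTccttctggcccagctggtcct
Col1a1: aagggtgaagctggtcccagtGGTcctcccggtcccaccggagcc
Col3a1: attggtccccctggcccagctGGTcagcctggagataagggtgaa
Col5a1: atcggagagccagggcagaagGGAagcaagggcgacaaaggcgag
Col5a2: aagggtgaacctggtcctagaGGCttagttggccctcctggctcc
Col11a1: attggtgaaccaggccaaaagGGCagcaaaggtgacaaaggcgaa

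In *Col1a2* the codon is number 706 of the coding sequence and lies in exon 35 of 52, on the plus strand at chr6:4530975-4530977. The uninterrupted run holds 339 Gly-X-Y triplets in *Col1a2*, 338 in *Col1a1* and 344 in *Col3a1*. It holds 216 triplets in *Col24a1* and 217 in *Col27a1*, against 337 to 339 in the collagen V chains and *Col11a1*. The genes are dispersed over 7 chromosomes, and *Col3a1* (chr1:45311538-45349706, plus strand) and *Col5a2* (chr1:45374321-45503282, minus strand) are neighbours. *Col1a1* lies on chromosome 11 and *Col1a2* on chromosome 6, so the chains of collagen I are transcribed from unlinked genes.

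Library totals ran from 17140202 to 59734231 counts. The 6 libraries of replicate 1 were the shallowest, at 17140202 to 25825762 counts, and stood apart from the other 18 in several genes below, so values with and without them are given. All 8 OB markers (*Runx2*, *Sp7*, *Ibsp*, *Alpl*, *Bglap*, *Spp1*, *Ifitm5* and *Dmp1*) rose from day 8 to the later days, 7 of them also with the total count as scale. The endothelial and adipocyte lists were close to 0, with summed levels of at most 0.00513 and 0.0182. Each list held 5 genes, whose highest counts in any library ran from 2 (*Emcn*) to 102 (*Kdr*) for the endothelial and from 2 (*Lep*) to 226 (*Fabp4*) for the adipocyte genes. After day 8 *Pecam1* (log2 fold change −0.49, adjusted p = 0.0397) and *Fabp4* (−0.93, adjusted p = 0.0424) fell. *Kdr* rose over the same days (2.04, adjusted p = 4.19e-07) and was higher in Het at the later days (0.99, adjusted p = 0.0116). Macrophage, chondrocyte, smooth muscle and fibroblast genes were present and are given beside the results they move with. The level of a gene is its RQ, its count relative to the geometric mean of the housekeeping genes of the library, which were *Sdha*, *Mrfap1*, *Actb* and *Actg1*. Adjusted p-values of single genes are from edgeR's quasi-likelihood test with Benjamini-Hochberg adjustment over all genes tested, and a gene is called where that value is under 0.05. Log2 fold changes carry their standard error (SE).

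Collagen I held most of the counts of the 9 genes in every library. *Col2a1*, which is not among the 9, had more counts than either collagen I gene in replicate 1 of day 8. It had 352786 counts there in WT and 413867 in Het, against 194288 and 247621 for *Col1a1*. *Col1a1* had the highest count of all genes in 14 of the 16 libraries of days 14 and 21, and *Col1a2* had it in the other 2. At day 8 *Col1a1* ranked from 2 to 4. Together the 9 genes took 2.82% to 6.31% of all counts at day 8 (4.91% ± 1.37, SD, n = 8) and 8.66% to 16.3% at days 14 and 21 (13% ± 2.35, n = 16). Within the counts of the 9 genes, the share of *Col1a1* and *Col1a2* went from 72.4% on average at day 8 to 88.5% later. The share of *Col3a1* went from 7.93% to 3.18%, that of the collagen V genes from 13.1% to 6.01% and that of *Col11a1* from 6.21% to 2.07%. Each of these was thus a smaller part of the counts of the 9 genes at the later days, although most of their levels had risen.

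**Figure D1:**
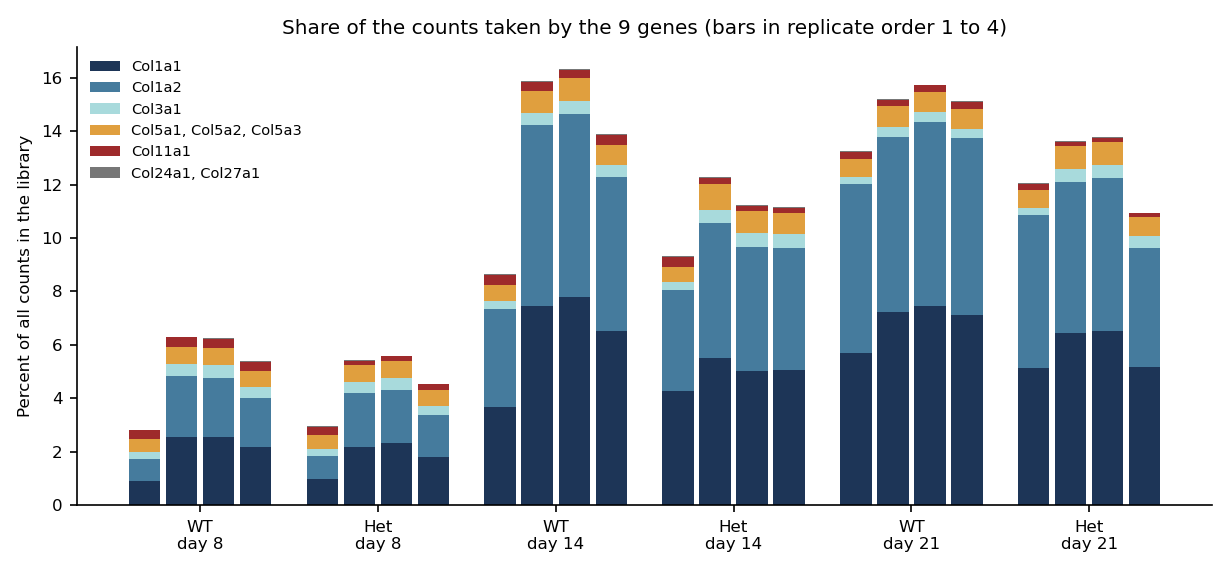
Percent of all counts taken by the fibrillar collagen chains, as 1 stacked bar per library in replicate order within each genotype and day. The 9 genes took 2.82% to 6.31% at day 8, against 8.66% to 16.3% on the later days, most of it from *Col1a1* and *Col1a2*.

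Levels of different genes were compared per kilobase, with the gene length given in the count files. In the 8 WT libraries of days 14 and 21 the mean RQ per kilobase was 22.1 for *Col1a1* and 10.9 for *Col1a2*. A group of lower genes followed with 1.01 for *Col5a2*, 0.837 for *Col3a1*, 0.775 for *Col5a1* and 0.531 for *Col11a1*, and neighbours among these 4 overlapped between libraries. The 3 lowest were *Col24a1* at 0.0641, *Col27a1* at 0.0125 and *Col5a3* at 0.00668 RQ per kilobase. *Col24a1* overlapped neither *Col11a1* nor *Col27a1*, whereas *Col27a1* and *Col5a3* overlapped. With these lengths the order was the same in Het except for the last pair, with *Col5a3* at 0.00870 and *Col27a1* at 0.00845 RQ per kilobase. At day 8 in WT, *Col27a1* stood above *Col24a1*, at 0.0258 against 0.00888 RQ per kilobase. The distance between *Col1a1* and *Col1a2* and the order of the lower genes depend on the length used. The files give *Col1a2* 12426 bases over all its annotated exons, while its longest coding transcript has 5348, and with transcript lengths *Col1a2* ranked first in both genotypes at the later days. In WT *Col3a1* (1.48) then stood above *Col5a2* (1.46) and *Col11a1* (0.882) above *Col5a1* (0.789), and *Col27a1* did not overlap *Col5a3*. In Het *Col3a1* also stood above *Col5a2*, *Col5a1* (0.877) stayed above *Col11a1* (0.555), and *Col27a1* (0.0145) stood above *Col5a3* (0.00968).

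From day 8 to days 14 and 21 the collagen I genes rose about 4-fold and *Col24a1* about 7-fold, and the collagen V genes rose less. *Col27a1* fell, and *Col11a1* was not called. Of the 9 genes 7 were called higher and 1 lower, where 58.3% of the 20434 genes tested were called in either direction, 40.9% higher and 17.4% lower. The median log2 fold change of the 9 genes was 0.70 and that of all genes tested was 0.16. The latter shifted to −0.02 with TMM scaling and to −0.14 with the total count as scale, so differences from the median are also given. In bulk RNA, fewer cells of a type and less RNA per cell cannot be told apart.

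*Col1a1* had RQ levels of 16.7 to 46.3 in the 8 libraries of day 8, with a median of 35.9. In the 16 later libraries it had levels of 82.6 to 168, with a median of 131. *Col1a2* had 14.9 to 40.9 at day 8 (median 32.0) and 74.1 to 154 later (median 121). For both genes the lowest later library was above the highest library of day 8, and replicate 1 was the lowest WT library of each day except for *Col1a2* at day 21. The log2 fold change was 1.95 (SE 0.17, adjusted p = 3.69e-09) for *Col1a1* and 2.02 (SE 0.17, adjusted p = 1.41e-09) for *Col1a2*, which is 1.79 and 1.86 above the median of all genes. In replicate 1 the later mean RQ was 6.05 times that of day 8 for *Col1a1* and 7.02 times for *Col1a2*. In replicates 2 to 4 the same ratios were 3.56 and 3.63.

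*Col24a1* encodes a chain found in developing bone and cornea. Its levels were far lower, at 0.0216 to 0.0926 RQ at day 8 (median 0.0549) and 0.246 to 0.573 RQ later (median 0.394). Its days did not overlap either, and it had the largest rise of the 9 (log2 fold change 2.89, SE 0.22, adjusted p = 4.07e-10). The ratio of later to day 8 mean RQ was 15.3 in replicate 1 and 6.55 in replicates 2 to 4.

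*Col5a1*, *Col5a2* and *Col5a3* encode the chains of collagen V, of which α1(V) and α2(V) are the usual partners and α3(V) is restricted to few tissues. *Col5a1* had 3.84 to 5.24 RQ at day 8 and 4.82 to 9.28 later (log2 fold change 0.57, SE 0.10, adjusted p = 4.88e-05). *Col5a2* had 5.20 to 6.24 RQ at day 8 and 6.20 to 11.1 later (log2 fold change 0.70, SE 0.08, adjusted p = 7.99e-08). *Col5a3* had 0.0169 to 0.0343 RQ at day 8 and 0.0326 to 0.0936 later (log2 fold change 1.06, SE 0.14, adjusted p = 8.07e-07). The days touched or overlapped at their edges for all 3 genes. For *Col5a3* the overlap came from replicate 1, where both libraries of day 8 were above every other library of that day, and its later mean was 1.17 times that of day 8 in replicate 1 and 2.66 times in replicates 2 to 4.

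*Col3a1* had 4.59 to 8.66 RQ at day 8 and 5.15 to 10.7 later, with wide overlap. Its log2 fold change of 0.38 (SE 0.14, adjusted p = 0.0223) was 0.22 above the median of all genes, and the call was lost with TMM scaling (0.18, adjusted p = 0.345). It was also lost without WT replicate 1 of day 8 (0.29, adjusted p = 0.0588) or Het replicate 1 of day 8 (0.32, adjusted p = 0.0541). Taken by genotype, *Col3a1* gave 0.18 (adjusted p = 0.494) in WT and 0.58 (adjusted p = 0.0193) in Het. The difference between these was not called. An overlapping transcript on the same strand, *Gm47302*, held 2.99% to 4.6% as many counts as *Col3a1*.

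*Col11a1*, the α1 chain of collagen XI, had 2.47 to 6.37 RQ at day 8 and 2.5 to 8.90 later. Its change was not called (log2 fold change 0.20, SE 0.15, adjusted p = 0.272), and leaving out Het replicate 1 of day 8 gave 0.36 (adjusted p = 0.0296). *Col27a1*, a chain known from cartilage, had 0.0957 to 0.408 RQ at day 8 (median 0.233) and 0.0655 to 0.318 later (median 0.113). It was the single chain gene that fell (log2 fold change −0.77, SE 0.20, adjusted p = 0.0025). Taken by genotype, *Col27a1* gave −1.12 (adjusted p = 0.00265) in WT and −0.42 (adjusted p = 0.259) in Het, and the difference between these was not called. The cartilage chain gene *Col2a1* fell with it (−1.82, SE 0.48, adjusted p = 0.00266), from a median of 17.6 RQ at day 8 to 3.75 RQ later. *Col11a2*, the other collagen XI gene, rose (1.16, SE 0.19, adjusted p = 1.69e-05). Of the 6 chondrocyte markers 5 fell over the same days, and the summed level of the list was 5.74 to 35.6 RQ at day 8, 1.78 to 25.5 at day 14 and 1.64 to 13.3 at day 21. Macrophage markers rose, all 6 of 6, from summed levels of 0.0581 to 0.238 RQ at day 8 to 1.37 to 3.41 RQ at day 21. The summed smooth muscle list was 5.29 to 7.41 RQ at day 8, 3.8 to 5.65 at day 14 and 4.31 to 7.77 at day 21, and 4 of its 5 genes fell after day 8. The summed fibroblast list was 0.15 to 0.192, 0.104 to 0.226 and 0.192 to 0.302 RQ on these days, and 2 of 4 genes tested rose, *Cd34* and *Clec3b*. The part of these cell types in the changes was not tested.

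**Figure D2:**
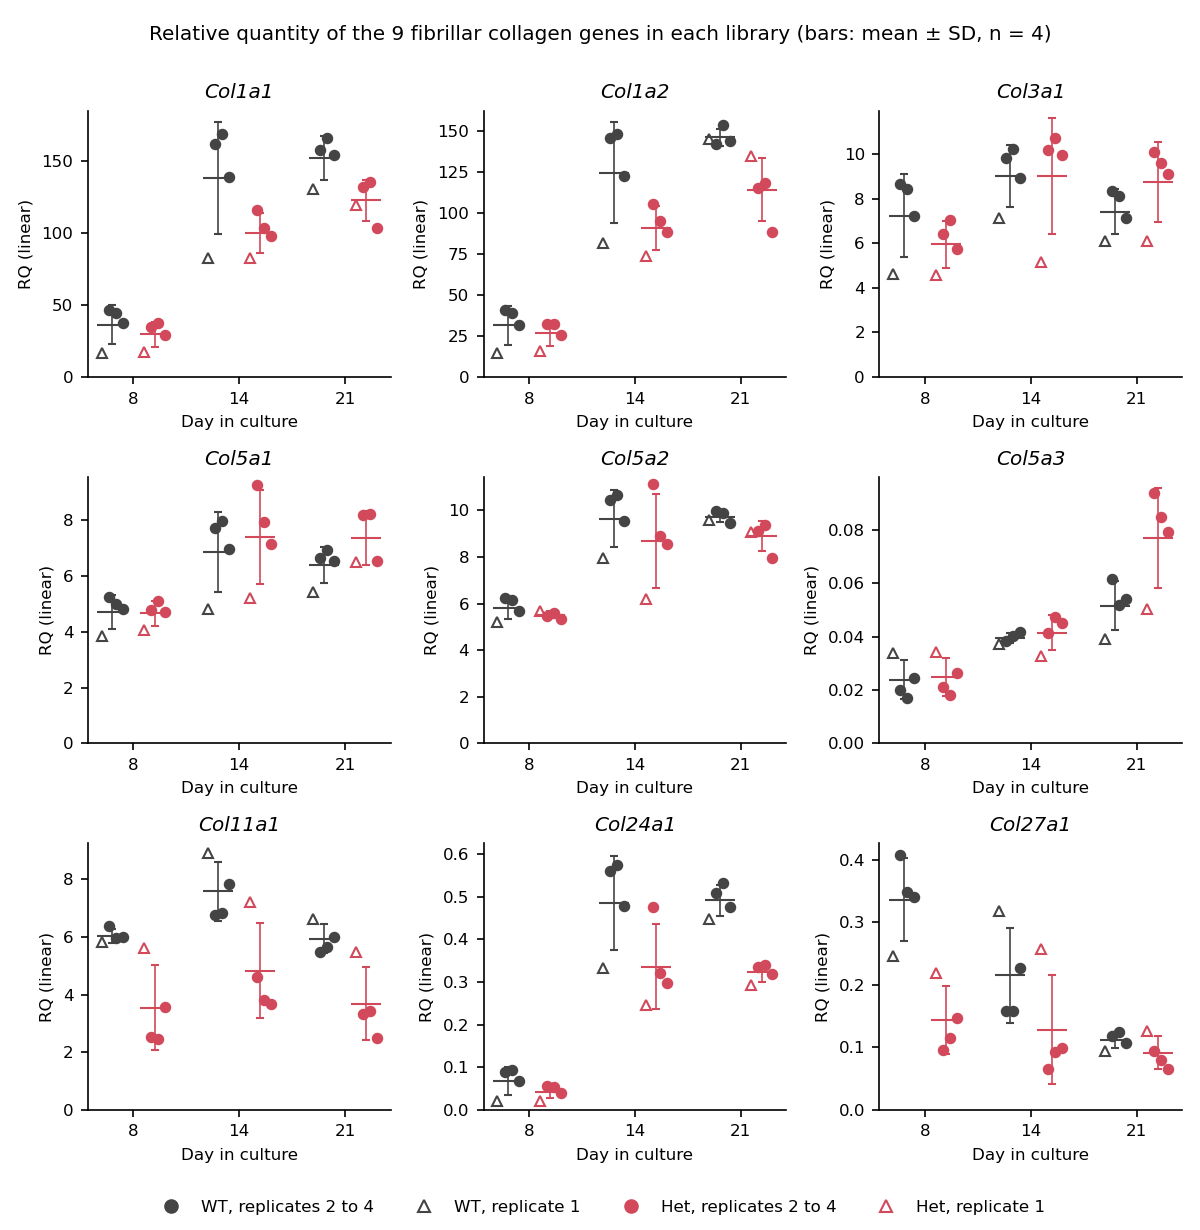
RQ (linear axes) of the 9 fibrillar collagen chains against the day in culture for each of the 24 libraries, with open triangles for replicate 1 and bars for the mean ± SD of 4 libraries. *Col1a1*, *Col1a2* and *Col24a1* at days 14 and 21 lie above every library of day 8. *Col11a1* is lower in Het than in WT in each same-numbered pair.

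Between day 14 and day 21 *Col5a3* rose. With the housekeeping scale it was the single one of the 9 genes called, where 20.6% of 18857 genes tested were called. With TMM scaling, DESeq2's size factors, the total count or the total count without the 9 genes, 1 was called higher and 2 lower. All genes called with these scales were 4257 to 4479, against 3886 with the housekeeping scale. DESeq2's own test called 1 of the 9 higher and 1 lower, and 4665 of all genes. At day 14 *Col5a3* had 0.0326 to 0.0472 RQ (median 0.0408) and at day 21 it had 0.0390 to 0.0936 RQ (median 0.0577), with a log2 fold change of 0.64 (SE 0.13, adjusted p = 0.00269). Replicate 1 of WT, at 0.0390 RQ, was the lowest library of day 21, and the days overlapped. *Col27a1* was just outside the threshold (−0.72, SE 0.25, adjusted p = 0.05002) and passed it with the replicate number as a block (−0.61, adjusted p = 0.0352), where 22.6% of genes were called. It also passed without Het day 14 replicate 2 (−0.84, adjusted p = 0.0160), 3 (−0.80, adjusted p = 0.0382) or 4 (−0.79, adjusted p = 0.0458) and without Het day 21 replicate 1 (−0.83, adjusted p = 0.0279). *Col11a1* likewise passed with the block (−0.37, adjusted p = 0.0198, against 0.108 without it) and without Het day 21 replicate 1 (−0.48, adjusted p = 0.0229). For *Col1a1* the log2 fold change was 0.22 (SE 0.13, adjusted p = 0.249) and for *Col1a2* 0.28 (SE 0.12, adjusted p = 0.107). *Col3a1*, *Col5a1*, *Col5a2* and *Col24a1* lay between −0.16 and 0.02, with adjusted p of 0.483 to 0.934.

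At days 14 and 21 the collagen I genes were lower in Het than in WT, with mean levels 0.768 (*Col1a1*) and 0.757 (*Col1a2*) times those of WT. *Col11a1* and *Col24a1* were lower still, at 0.630 and 0.673 times WT. Collagen III and collagen V genes were not called. Of the 9 genes 4 were called lower and 0 higher, where 17.6% of 18857 genes tested were called, 9.76% lower and 7.86% higher. The median log2 fold change was −0.39 over the 9 genes and −0.05 over all genes tested. With the replicate number as a block, 5 were called lower and 1 higher, where 23.1% of genes were called, 14% lower and 9.15% higher. Within single days none of the 9 was called by edgeR (adjusted p of 0.131 or more), where 3.45% of genes were called at day 14 and 0.91% at day 21. With the block *Col11a1* was called on both days, at day 14 (−0.69, adjusted p = 0.0232), where 9.46% of genes were called, and at day 21 (−0.73, adjusted p = 0.0241), where 4.62% were. No gene of the 9 had groups that did not overlap over the 8 libraries of each genotype.

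*Col1a2*, which carries the mutation, had RQ levels in WT of 82.0, 146, 148 and 123 at day 14 (replicates 1 to 4) and of 145, 142, 154 and 144 at day 21. In Het it had 74.1, 106, 95.5 and 88.4 at day 14 and 135, 115, 119 and 88.4 at day 21. Each Het library was below the WT library of the same day and number in 8 of 8 pairs, but the ranges overlapped because replicate 1 of WT at day 14 was low and replicate 1 of Het at day 21 was high. Mean RQ was 135 ± 23.4 (SD, n = 8) in WT and 103 ± 19.7 (n = 8) in Het, with a log2 fold change of −0.41 (SE 0.12, adjusted p = 0.0268). Within replicates 2 to 4 the Het mean was 0.714 times the WT mean and the groups did not overlap. Within replicate 1 it was 0.919 times. The call was lost without WT day 14 replicate 2 or 3, Het day 14 replicate 4, WT day 21 replicate 3 or Het day 21 replicate 4 (adjusted p from 0.0501 to 0.0621), and without all libraries of replicate 2, 3 or 4 (0.127 to 0.235).

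*Col1a1*, which is not mutated, had RQ levels in WT of 82.6, 161, 168 and 138 at day 14 and of 130, 157, 166 and 154 at day 21. In Het it had 82.7, 116, 103 and 97.7 at day 14 and 120, 132, 135 and 103 at day 21. Het was lower in 7 of 8 pairs, and the exception was replicate 1 of day 14, where both genotypes had nearly the same level. Mean RQ was 145 ± 28.3 in WT and 111 ± 17.7 in Het (n = 8 each), with a log2 fold change of −0.39 (SE 0.13, adjusted p = 0.0436). The Het mean was 0.727 times the WT mean in replicates 2 to 4, without overlap, and 0.950 times in replicate 1. This call was close to the threshold. It was lost with TMM scaling (−0.35, adjusted p = 0.0945) and in 12 of the 16 fits that each left out 1 library, namely WT day 14 and WT day 21 replicates 2, 3 and 4, Het day 14 replicates 1, 3 and 4 and Het day 21 replicates 2, 3 and 4 (log2 fold change −0.42 to −0.33, adjusted p 0.0518 to 0.0944). It was lost as well without all libraries of replicate 2, 3 or 4 (adjusted p 0.166 to 0.309).

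*Col11a1* had RQ levels in WT of 8.90, 6.76, 6.82 and 7.83 at day 14 and of 6.62, 5.49, 5.66 and 6.0 at day 21. In Het it had 7.22, 4.61, 3.79 and 3.68 at day 14 and 5.48, 3.34, 3.43 and 2.5 at day 21. Replicate 1 was the highest of its group in all 4 groups, and the overlap between genotypes came from the Het library of replicate 1 at day 14. The log2 fold change was −0.67 (SE 0.16, adjusted p = 0.00991), lower in 8 of 8 pairs, and the call held in all 16 fits without 1 library. It was lost without all libraries of replicate 2, 3 or 4 (adjusted p 0.0970 to 0.152). The Het mean was 0.818 times the WT mean in replicate 1 and 0.554 times in replicates 2 to 4.

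*Col24a1* had RQ levels in WT of 0.333, 0.560, 0.573 and 0.479 at day 14 and of 0.448, 0.510, 0.532 and 0.477 at day 21. In Het it had 0.246, 0.477, 0.322 and 0.298 at day 14 and 0.293, 0.335, 0.341 and 0.320 at day 21. Het was lower in 8 of 8 pairs. At day 21 every Het library was below every WT library, and at day 14 Het replicate 2 lay within the WT range. The log2 fold change was −0.57 (SE 0.12, adjusted p = 0.00739), the call held in all 16 fits without 1 library and was lost without all libraries of replicate 3 or 4 (adjusted p 0.0981 and 0.135), and the Het mean was 0.690 times the WT mean in replicate 1 and 0.669 times in replicates 2 to 4. *Col24a1* was thus the called gene whose genotype difference was nearly the same inside and outside replicate 1.

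*Col27a1* and *Col5a3* were called with the replicate block and not without it. *Col27a1* had 0.318, 0.158, 0.158 and 0.228 RQ in WT against 0.258, 0.0655, 0.0927 and 0.0983 RQ in Het at day 14. At day 21 it had 0.0950, 0.119, 0.124 and 0.107 RQ in WT against 0.127, 0.0936, 0.0792 and 0.0657 RQ in Het. The Het level was lower in 7 of 8 pairs, the exception being replicate 1 of day 21. Its log2 fold change was −0.52 (SE 0.25, adjusted p = 0.154), −0.61 (adjusted p = 0.0353) with the block and −0.76 (adjusted p = 0.0200) without Het day 14 replicate 1. In replicates 2 to 4 the Het mean of *Col27a1* was 0.554 times the WT mean and the groups did not overlap over both days.

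*Col5a3* went the other way. It had 0.0372, 0.0385, 0.0404 and 0.0417 RQ in WT against 0.0326, 0.0412, 0.0472 and 0.0450 RQ in Het at day 14. At day 21 the levels were 0.0390, 0.0614, 0.0520 and 0.0540 RQ in WT against 0.0503, 0.0936, 0.0849 and 0.0792 RQ in Het. Het was higher in 7 of 8 pairs, and at day 21 its replicates 2 to 4 were above all WT libraries. The log2 fold change of 0.33 (SE 0.13) had an adjusted p of 0.0888 without the block and 0.0317 with it (0.32), and it passed without Het day 14 replicate 1 (0.39, adjusted p = 0.0311) or Het day 21 replicate 1 (0.39, adjusted p = 0.0289). Counts of *Col5a3* were low for this family, from 288 to 2427 per library.

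The remaining genes were not called. *Col5a1* had 4.82 to 7.96 RQ in WT and 5.23 to 9.28 RQ in Het (log2 fold change 0.15, SE 0.12, adjusted p = 0.400). *Col5a2*, its usual partner, had 7.95 to 10.7 RQ in WT and 6.20 to 11.1 RQ in Het (−0.14, SE 0.10, adjusted p = 0.330). The estimates had opposite signs, which is taken up with the ratio of these genes. *Col3a1* had 6.10 to 10.2 RQ in WT and 5.15 to 10.7 RQ in Het (0.12, SE 0.15, adjusted p = 0.626), with the Het mean 0.852 times the WT mean in replicate 1 and 1.14 times in replicates 2 to 4. Without replicate 1, *Col3a1* was called higher (0.19, adjusted p = 0.0421).

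**Figure D3:**
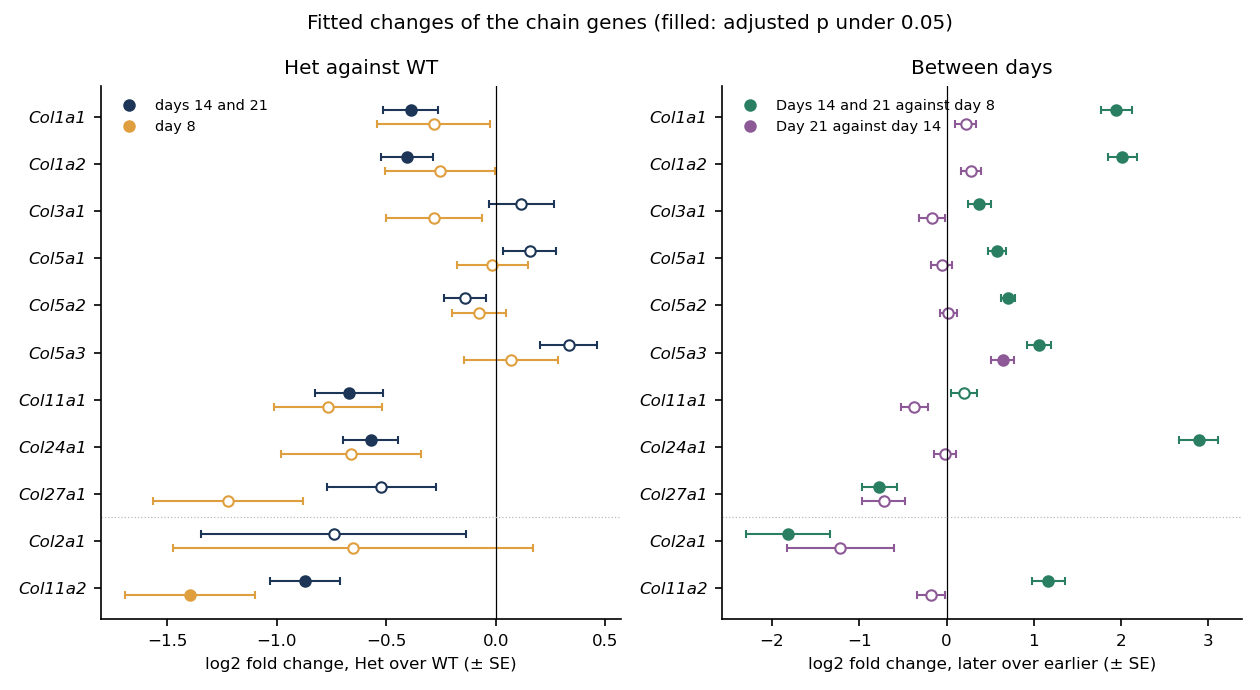
Log2 fold changes from edgeR with their SE, for Het against WT on the left and between days on the right, of the 9 genes and, under the dotted line, *Col2a1* and *Col11a2*. Filled points have an adjusted p under 0.05. *Col1a1*, *Col1a2*, *Col11a1* and *Col24a1* lie below 0 at days 14 and 21 and *Col5a3* lies above it.

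Other genes moved between the genotypes over the same libraries. Of the 8 OB markers 4 were lower in Het, *Runx2* (−0.39, adjusted p = 0.0174), *Sp7* (−0.34, adjusted p = 0.00828), *Ifitm5* (−0.40, adjusted p = 0.00471) and *Bglap* (−1.54, adjusted p = 0.0121), and 0 were higher. The summed OB list had 18.5 to 23.7 RQ in WT and 11.8 to 18 RQ in Het at day 14, and 23.9 to 56.0 RQ in WT and 15 to 42.9 RQ in Het at day 21. Of the 6 macrophage markers 5 were higher in Het, among them *Csf1r* (1.05, adjusted p = 0.00354), with summed levels of 0.336 to 0.998 RQ in WT and 0.851 to 1.58 RQ in Het at day 14, and of 1.37 to 1.58 and 1.76 to 3.41 RQ at day 21. Of the 6 chondrocyte markers *Sox9* was called lower (−0.70, adjusted p = 0.0225). In replicates 2 to 4 the summed chondrocyte list was 7.71 to 14.6 RQ in WT and 1.78 to 2.88 RQ in Het at day 14, whereas replicate 1 had 23.8 and 25.5 RQ. At day 21 the same libraries had 6.39 to 9.30 RQ in WT and 1.64 to 2.34 RQ in Het, and replicate 1 had 12.7 and 13.3 RQ. *Col2a1* followed the same pattern, with a Het mean of 1.06 times the WT mean in replicate 1 and 0.248 times in replicates 2 to 4, and its log2 fold change was −0.74 (adjusted p = 0.419) without the block and −1.42 (adjusted p = 0.00422) with it. *Col11a2* was lower in Het (−0.87, SE 0.16, adjusted p = 0.00299). Of the smooth muscle genes *Myh11* was higher in Het (0.89, adjusted p = 0.00869), and the summed list was 3.8 to 5.02 RQ in WT and 4.15 to 5.65 RQ in Het at day 14, and 4.31 to 7.25 and 4.48 to 7.77 RQ at day 21. Of the fibroblast genes *Dpt* was higher in Het (1.15, adjusted p = 0.0438), with summed levels of 0.118 to 0.205 and 0.104 to 0.226 RQ at day 14 and of 0.192 to 0.258 and 0.215 to 0.302 RQ at day 21. The Y-linked genes *Ddx3y*, *Eif2s3y*, *Kdm5d* and *Uty* were lower in Het, with log2 fold changes of −0.99 to −0.70, all 4 called, while *Xist* was not (0.11, adjusted p = 0.729), so the pools differed in these genes as well. The part of cell makeup or of the sexes of the pooled pups in the collagen differences was not tested.

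At day 8 *Col11a1* and *Col27a1* had the largest differences between genotypes, with lower levels in Het, and those of the collagen I genes were within about 1 SE of 0. None of the 9 genes was called by edgeR, where 0.631% of 20434 genes tested were called. Of all genes, 2062 had an unadjusted p under 0.05 and DESeq2 called 458. At an unadjusted p under 0.05 there were 2 of the 9, *Col11a1* and *Col27a1*, DESeq2 called 1 and the fit with the block called 2, where it called 1.53% of genes. *Col1a1* had 16.7, 46.3, 44.2 and 37.6 RQ in WT against 17.6, 34.6, 37.2 and 29.4 RQ in Het (log2 fold change −0.28, SE 0.26, adjusted p = 0.797). *Col1a2* had 14.9, 40.9, 39.2 and 31.9 RQ in WT against 16.2, 32.1, 32.4 and 25.7 RQ in Het (−0.25, SE 0.25, adjusted p = 0.822). In both genes replicate 1 was the lowest by a wide margin in both genotypes, and the Het library was below the WT library in replicates 2, 3 and 4 and above it in replicate 1.

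*Col11a1* at day 8 had 5.82, 6.37, 5.96 and 6.0 RQ in WT against 5.63, 2.51, 2.47 and 3.58 RQ in Het. The groups did not overlap, and the Het library of replicate 1 was near the WT level. The log2 fold change was −0.77 (SE 0.25, adjusted p = 0.196), −0.85 with the block (adjusted p = 0.0243) and −1.08 without Het day 8 replicate 1 (adjusted p = 0.0106). *Col27a1* had 0.247, 0.408, 0.349 and 0.341 RQ in WT against 0.220, 0.0957, 0.116 and 0.147 RQ in Het, also without overlap. Its log2 fold change was −1.22 (SE 0.34, adjusted p = 0.108), −1.34 with the block (adjusted p = 0.0275), −1.50 without Het day 8 replicate 1 (adjusted p = 0.0213) and −1.22 without Het day 14 replicate 1 (adjusted p = 0.0237), and DESeq2 gave an adjusted p of 0.0169. The Het mean was 0.967 times the WT mean in replicate 1 and 0.467 times in replicates 2 to 4 for *Col11a1*, and 0.891 and 0.326 times for *Col27a1*. *Col11a2* was called (−1.40, SE 0.30, adjusted p = 0.0314), a call lost without any single WT or Het library of replicates 2 to 4 of day 8 (adjusted p 0.0768 or more). The summed chondrocyte list was 21.1 to 35.6 RQ in WT and 5.74 to 34.4 RQ in Het, with 0 of its 6 genes called. Of the 8 OB markers *Ifitm5* (−1.99, adjusted p = 0.00187) and *Dmp1* (−2.42, adjusted p = 0.00854) were lower in Het. Of the 6 macrophage markers *Ptprc* (1.79, adjusted p = 0.0290) and *C1qa* (1.79, adjusted p = 0.0384) were higher. The 4 Y-linked genes had −0.91 to −0.67, none called. The part of cell makeup or of the sexes of the pooled pups in these differences was not tested.

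*Col24a1* at day 8 had 0.0216, 0.0889, 0.0926 and 0.0675 RQ in WT against 0.0216, 0.0572, 0.0526 and 0.0401 RQ in Het (−0.66, SE 0.32, adjusted p = 0.50). Replicate 1 was equal in both genotypes and lowest in both. *Col3a1* gave −0.28 (SE 0.22, adjusted p = 0.751). *Col5a1*, *Col5a2* and *Col5a3* lay between −0.08 and 0.07, with adjusted p of 0.922 to 0.998, and the signs of *Col5a1* and *Col5a2* turned under the other scalings.

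Whether the genotype difference itself changed between day 8 and the later days was tested as an interaction. None of the 9 genes was called by edgeR, where 0.171% of 20434 genes were called, and at an unadjusted p under 0.05 and by DESeq2 there were 0 as well, against 1138 and 92 of all genes. The largest estimate was that of *Col27a1* (0.70, SE 0.41), followed by *Col3a1* (0.40, SE 0.27), each meaning a Het level that was higher relative to WT at the later days than at day 8. Without replicate 1 both were called (*Col27a1* 0.80, adjusted p = 0.0401, and *Col3a1* 0.53, adjusted p = 0.0140). The calls of *Col1a1*, *Col1a2*, *Col11a1* and *Col24a1* at days 14 and 21 are therefore not shown to differ from day 8.

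The ratio of *Col1a1* to *Col1a2* counts was nearly constant. It had a mean of 1.10 ± 0.0725 (SD, n = 24) and a range of 0.888 to 1.18 over all libraries, while the level of *Col1a1* itself ranged from 16.7 to 168 RQ. In WT the ratio was 1.12, 1.13, 1.13 and 1.18 at day 8, 1.01, 1.11, 1.14 and 1.13 at day 14 and 0.896, 1.11, 1.08 and 1.07 at day 21. In Het it was 1.09, 1.08, 1.15 and 1.15 at day 8, 1.12, 1.09, 1.08 and 1.10 at day 14 and 0.888, 1.14, 1.14 and 1.17 at day 21. The libraries of replicate 1 at day 21 were the lowest in both genotypes, and replicates 2 to 4 kept to 1.07 to 1.18.

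The *Col1a1* to *Col1a2* ratio did not pass the test in any of 4 comparisons, with two-sided exact permutation tests on the log2 ratio and Benjamini-Hochberg adjustment over 12 tests of 3 ratios. Over the later days Het had a geometric mean of 1.09 and WT one of 1.06 (exact p = 0.552, adjusted p = 0.602), with Het higher in 4 of 8 pairs. At day 8 it was 1.12 in Het and 1.14 in WT (exact p = 0.314, with 0.0286 the smallest p possible for 4 against 4). It was 1.08 at the later days and 1.13 at day 8 (exact p = 0.115), and 1.06 at day 21 and 1.10 at day 14 (exact p = 0.389). The ratio per kilobase depends on the length, with a mean of 2.07 from the lengths in the files and of 0.988 from the longest coding transcripts, so the molar ratio of the mRNAs is not fixed by these counts.

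The ratio of *Col3a1* to *Col1a1* fell with time. It was 0.277, 0.187, 0.191 and 0.192 in WT against 0.260, 0.185, 0.189 and 0.195 in Het at day 8. At day 14 it was 0.0860, 0.0608, 0.0607 and 0.0644 in WT against 0.0623, 0.0878, 0.104 and 0.102 in Het, and at day 21 0.0469, 0.0528, 0.0489 and 0.0463 in WT against 0.0511, 0.0768, 0.0709 and 0.0881 in Het. Replicate 1 was the highest library of each genotype at day 8, and every later library was below every library of day 8. The geometric mean was 0.0670 later and 0.207 at day 8 (exact p = 1.36e-06, the smallest the permutations can give, adjusted p = 1.63e-05). These permutations exchange all libraries freely, although wells of a preparation share animals. Taken by genotype and number, the ratio was lower later in 8 of 8 pairs (paired exact p = 0.00781, the smallest that 8 pairs allow). Over the later days Het had 0.0784 and WT 0.0572, higher in Het in 7 of 8 pairs (exact p = 0.0180, adjusted p = 0.0721), which does not pass after adjustment. Het was 0.889 times WT in replicate 1 and 1.58 times WT in replicates 2 to 4. At day 21 the ratio was 0.0585 and at day 14 it was 0.0766 (exact p = 0.0471, adjusted p = 0.141). It was lower at day 21 in 8 of 8 pairs of the same genotype and number (paired exact p = 0.00781, the smallest that 8 pairs allow). Pairs were checked only between libraries of the same day, so the linking of days by number was not checked. For these days the paired exact p was 0.352 for *Col1a1* to *Col1a2* and 0.0781 for *Col5a1* to *Col5a2*.

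The ratio of *Col5a1* to *Col5a2* differed between the genotypes. At day 14 it was 0.606, 0.739, 0.746 and 0.729 in WT against 0.843, 0.833, 0.892 and 0.833 in Het. At day 21 it was 0.566, 0.666, 0.702 and 0.693 in WT against 0.715, 0.896, 0.875 and 0.821 in Het. Het was higher in 8 of 8 pairs, and the groups overlapped only through the Het library of replicate 1 at day 21. The geometric mean was 0.837 in Het and 0.678 in WT, 1.23-fold higher in Het (exact p = 0.000622, adjusted p = 0.00373). The difference was 1.33-fold in replicate 1 and 1.20-fold in replicates 2 to 4, and without any replicate number or library the exact p stayed at 0.00649 or below. At day 8 the ratio was 0.738, 0.840, 0.812 and 0.844 in WT against 0.713, 0.879, 0.915 and 0.881 in Het, with geometric means of 0.807 and 0.843 (exact p = 0.486). Between days the ratio did not pass the test, at 0.753 later and 0.825 at day 8 (exact p = 0.103, adjusted p = 0.230) and at 0.734 at day 21 and 0.773 at day 14 (exact p = 0.472). Transcripts on the other strand overlap *Col5a1*, *2810430I11Rik* and *Gm13372*, and held 1.53% to 2.47% and 3.53% to 4.23% as many counts as *Col5a1*. Whether the counting used strand is not given in the sources used here.

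**Figure D4:**
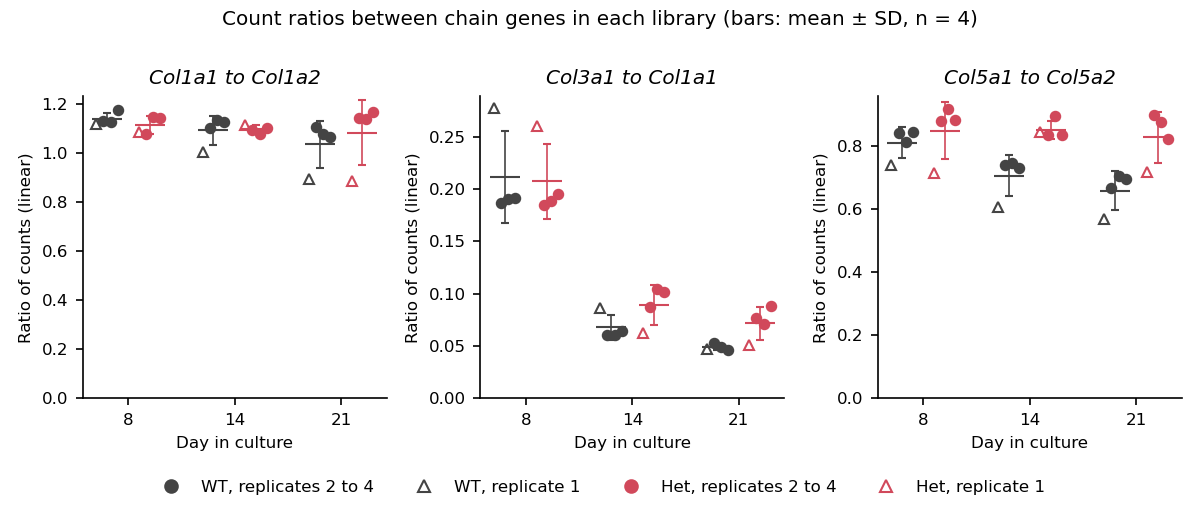
Count ratios of *Col1a1* to *Col1a2*, *Col3a1* to *Col1a1* and *Col5a1* to *Col5a2* in each library against the day in culture, with open triangles for replicate 1 and bars for the mean ± SD of 4 libraries. The first stays between 0.888 and 1.18, the second is lower at days 14 and 21 than at day 8 in every library, and the third is higher in Het than in WT in each same-numbered pair of days 14 and 21.

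The genes that make, fold, export, cut, cross-link and transcribe procollagen were followed in 4 lists, of which 52 genes could be tested. Over the later days, 3 of the 52 were higher and 16 lower in Het, where 7.86% of all genes were called higher and 9.76% lower, with a median log2 fold change of −0.15 against −0.05 over all genes. Of 20 genes for hydroxylation and folding 7 were lower and 0 higher, a count that was 4 with TMM scaling. *Plod2*, the lysyl hydroxylase of the telopeptides, was lower (−0.52, SE 0.13, adjusted p = 0.0164). Of 10 genes for export from the endoplasmic reticulum 3 were lower. Of 12 genes for cleavage and cross-linking 2 were higher and 3 lower. Among these, *Adamts3*, an N-proteinase that cleaves procollagen, was lower (−0.78, SE 0.11, adjusted p = 0.000421), as was *Pcolce2*, an enhancer of C-proteinase (−0.48, SE 0.10, adjusted p = 0.00649), while *Tll1*, a C-proteinase of the tolloid family, was higher (1.11, SE 0.35, adjusted p = 0.0406), as was *Loxl1*, a lysyl oxidase (0.33, SE 0.09, adjusted p = 0.0174). Of 10 genes that act on collagen transcription 1 was higher, *Creb3l1* (0.28, SE 0.08, adjusted p = 0.0225), which encodes the factor OASIS known to drive *Col1a1* in OBs. In the same list 3 were lower, among them *Runx2* and *Sp7*, which are also counted with the OB markers above. At day 8, 0 of the listed genes were called.

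From day 8 to days 14 and 21, 36 of the 52 procollagen genes rose and 8 fell, where 40.9% of all genes were called higher and 17.4% lower, with a median of 0.31 against 0.16 over all genes. In hydroxylation and folding 16 rose and 4 fell, among them *P4ha1*, a prolyl 4-hydroxylase subunit (2.08, SE 0.15, adjusted p = 1.65e-10). In export 9 of 10 rose, of which 4 were still called higher with TMM scaling and 3 with the total count as scale. *Loxl4*, a lysyl oxidase, rose most (2.87, SE 0.17, adjusted p = 7.42e-12), followed after *P4ha1* by *Tgfb1* (2.01, SE 0.09, adjusted p = 6.10e-14), while *Ltbp1*, which stores latent TGF-β in the matrix, fell (−1.75, SE 0.11, adjusted p = 1.49e-11). *Loxl1* fell by 0.90 on the log2 scale and *Colgalt2*, a collagen galactosyltransferase, fell by 1.68. Between days 14 and 21, where 20.6% of all genes were called, 5 rose and 14 fell, 10 of the latter in hydroxylation and folding, including *P3h2* (−0.90, adjusted p = 1.98e-05) and *P4ha1* (−0.49, adjusted p = 0.00993). *Col1a1* and *Col1a2* were not called over those days.

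Likeness between genes was measured as the SD over the 24 libraries of the log2 ratio of their counts, where 0 would be a fixed ratio. For *Col1a1* and *Col1a2* it was 0.102. For *Col5a1* and *Col5a2* it was 0.185, for *Col3a1* and *Col5a1* 0.208 and for *Col3a1* and *Col5a2* 0.311. The log2 ratio of *Col24a1* to *Col1a1* had an SD of 0.542 and that to *Col1a2* one of 0.523, which were 0.187 and 0.213 once the group means were removed. Among 14822 other genes averaging 50 counts or more, those near to *Col1a1* included *Dmpk* (0.184), *Fam43a* (0.202), *Rapgefl1* (0.241) and *Prr5l* (0.241), against a median of 1.04. Those near to *Col1a2* included *A930017M01Rik* (0.192), *Dmpk* (0.204), *Prr5l* (0.211) and *Tent5a* (0.222), against a median of 1.06. *Dmpk* and *Prr5l* were in both sets, and no gene came as near to either collagen I gene as the other collagen I gene. These values describe libraries that share depth, day and preparation.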

How the data were processed

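Bulk RNASeq was examined for 24 libraries of cultured primary OBs, 4 for each genotype (WT, Het G610C) at days 8, 14 and 21. Each file deposited by the authors holds unnormalized gene counts of 1 library, with 55335 genes and their lengths and without molecular identifiers, so counting error is the least that applies. The submitters' processing notes list cutadapt 2.5, STAR 2.73a, Subread, featureCounts 1.6.4 and the build mm10. The strand rule is not given in the sources used here. Totals were 17140202 to 59734231 counts per library (median 48340136). Coordinates and sequences are from GENCODE M21 (GRCm38), in which 54587 gene identifiers had the same version, and *Col5a1* was matched without its version number.

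RQ was the count divided by the library's geometric mean count of *Sdha*, *Mrfap1*, *Actb* and *Actg1*, after the study's methods. Log2 fold changes of these genes stayed within 0.08 of 0 in every comparison. They must average near 0 because the same genes form the scale, so they cannot show that the scale is stable. Relative to the library total (CPM), this geometric mean averaged 582 at day 8 and 472 at days 14 and 21. Het stood above WT on average, at 600 against 563 (day 8), 499 against 461 (day 14) and 476 against 452 (day 21). At equal CPM of a gene, a higher geometric mean gives a lower RQ. The counts were tested with edgeR 4.0.16 (glmQLFit, glmQLFTest, filterByExpr) in R 4.3.3, scaled by that geometric mean and not by the library total, with Benjamini-Hochberg adjustment at 0.05. Days 14 and 21 were fitted with day and genotype as terms. The day 8, time and interaction contrasts came from 6 group means over all libraries. Two-sided exact permutation tests were used for count ratios (scipy 1.17.1). The fits were tested on simulated counts. DESeq2 1.42.0 with its size factors, TMM, total counts with and without the 9 genes, no filter, single days or genotypes, covariates and left-out libraries were the alternatives.

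The 9 genes, the procollagen and marker lists and the tests were chosen with earlier results of these data known. Named genes are the 11 fibrillar chain genes, the housekeeping genes and markers, the 5 genes most like *Col1a1* and *Col1a2* (mean count at least 50, with 1 result not reported here), and in each comparison up to 3 procollagen genes with the largest rise and 3 with the largest fall among those called. *Xist* and the Y-linked genes, the 3 overlapping transcripts and the use of *Col2a1* as a marker stand outside this rule for the values beside the results and were added after values were seen, as was the ratio per kilobase from transcript lengths.

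Libraries of the same group were compared in 36 pairs. Their counts differed by more than sampling noise in each (smallest chi-square per degree of freedom 4.78), so none was set aside as a repeat run of another. This check cannot show that the libraries came from separate wells. Same-numbered WT and Het libraries of a day were taken as pairs, because all 12 correlations of their deviations from the group means over 14890 genes were positive (0.196 to 0.728, median 0.571, against −0.117 for 36 pairs of different numbers). For the pairs of replicates 2 to 4 they were 0.196 to 0.629, with replicate 1 still part of the group means. A replicate 1 that stands apart in both genotypes gives the other numbers shared deviations. These correlations therefore cannot show that replicates 2 to 4 are true pairs. Values with the replicate number as a block are given where they change a call. Replicate 1 was treated as a batch because of its depth and the naming of its files.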

Additional observations from a re-analysis of the deposited data

Results flagged for a closer look

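In 72 sets of 4 libraries (RQ of the 9 genes and 3 ratios, in 6 groups), 8 had a highest or lowest library that stood farther from the next than Dixon's 95% critical value for 4 samples. Chance gives about 1 in 20 sets, and 7 of the 8 libraries were replicate 1. *Col3a1* at day 14 in Het was lowest in replicate 1 (RQ 5.15), and *Col27a1* in the same library was highest (RQ 0.258). The *Col1a1* to *Col1a2* ratio of Het at day 21 was lowest in replicate 1 (0.888). The *Col3a1* to *Col1a1* ratio was highest in replicate 1 of WT at day 8 (0.277), of Het at day 8 (0.260) and of WT at day 14 (0.0860). The *Col5a1* to *Col5a2* ratio was lowest in replicate 1 of WT at day 14 (0.606). In the remaining set the same ratio was highest in replicate 3 of Het at day 14 (0.892).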

How the results depend on the processing

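The direction of *Col1a1*, *Col1a2*, *Col11a1* and *Col24a1* in Het against WT at days 14 and 21 was the same under all alternatives. The call of *Col1a1* was lost with DESeq2's size factors (adjusted p = 0.0964), the total count (0.106) and the total count without the 9 genes (0.0967), and without a filter on low counts it was 0.266 for *Col1a1* and 0.216 for *Col1a2*. Within single days none of the 4 was called without the block, and *Col11a1* was called on both days with it. Without replicate 1 all 4 were called, without replicate 2 only *Col24a1* was, and without replicate 3 (adjusted p 0.0970 to 0.211) or 4 (0.135 to 0.309) none was. With the replicate numbers as pairs, calls changed only for *Col5a3*, *Col11a1* and *Col27a1* among the 9, as given above. The share of higher genes among all genes called in Het against WT at days 14 and 21 was 44.6% with the housekeeping scale, 61.9% with TMM and 76.1% with the total count. It was 50.4% and 68.1% at day 8, and 68.9% and 51.1% for day 21 against day 14, with housekeeping and TMM scaling. For the later days against day 8 it was 70.1%, 45.6% with TMM and 33.0% with the total count.

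Counts of all genes called moved by over 1.5 times as follows. Het against WT at days 14 and 21 gave 3322, 5082 with replicate 1 against the others as a covariate, 704 at day 14 and 186 at day 21. At day 8 it gave 129, 458 with DESeq2, 317 with the replicate block and 391 with the covariate. The interaction gave 35, 92 with DESeq2, 67 with the replicate block and 72 with the covariate. Day 21 against day 14 gave 3886, 1726 in WT and 968 in Het. Leaving out libraries gave 141 to 7536, 0 to 3405, 0 to 928 and 1714 to 5560 in these 4 comparisons. The cause was not tested.

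Signs turned only for log2 differences near 0 or for the interaction. With the TMM scale, that of DESeq2, the total and the total without the 9 genes, *Col5a1* at day 8 became 0.090, 0.085, 0.082 and 0.073, *Col5a2* at day 8 0.020, 0.016, 0.015 and 0.0051, and *Col5a2* for day 21 against day 14 −0.031, −0.029, −0.025 and −0.0063. *Col3a1* in Het against WT was −0.0016 at day 14 alone, *Col11a1* later against day 8 was −0.093 with the total count, and *Col24a1* for day 21 against day 14 was 0.0080 with the block and 0.015 in WT. Leaving out libraries, the day 8 difference ran from −0.10 to 0.046 (*Col5a1*) and −0.11 to 0.27 (*Col5a3*). The interaction ran from −0.29 to 0.13 (*Col1a1*), −0.33 to 0.083 (*Col1a2*), −0.16 to 0.018 (*Col5a2*), −0.074 to 0.41 (*Col11a1*), −0.12 to 0.37 (*Col24a1*) and −1.06 to 0.60 (*Col2a1*). Day 21 against day 14 ran from −0.13 to 0.0035 (*Col5a1*), −0.088 to 0.10 (*Col5a2*) and −0.11 to 0.11 (*Col24a1*).

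For ratios, the log2 difference of *Col3a1* to *Col1a1* in Het against WT was 0.38 at day 14 alone (exact p = 0.114) and 0.53 at day 21 alone (exact p = 0.0571), and 0.34 to 0.66 without libraries. At day 8 it was 0.00081 from summed RQ and −0.14 to 0.11 without libraries. For day 21 against day 14 it was −0.37 from summed RQ (exact p = 0.0567), −0.31 in Het (exact p = 0.257) and −0.47 to −0.32 without libraries. *Col1a1* to *Col1a2* ran from −0.0013 to 0.076 in Het against WT and from −0.082 to 0.012 for day 21 against day 14 without libraries. *Col5a1* to *Col5a2* later against day 8 was −0.25 in WT alone (exact p = 0.0141).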
